A study of Homo sapiens with 6 samples.

Results

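The genes described here are the PGC-1 coactivators and the nuclear factors through which they act on mitochondrial biogenesis: PPARGC1A (encoding PGC-1α), PPARGC1B (PGC-1β), PPRC1 (the PGC-1-related coactivator PRC), NRF1, GABPA, ESRRA, TFAM, TFB1M, TFB2M and POLG. They were chosen by name, and all 10 were found among the 61661 gene identifiers of the count table. The cells were K562, an established human line of chronic myeloid leukemia in the blast phase. K562 shCTR cells carried a lentiviral control vector with a nonsense insert, K562 shMETTL3 cells an shRNA against METTL3, and K562 shMETTL14 cells an shRNA against METTL14, with 2 RNA-seq libraries in each of the 3 groups. The shCTR and shMETTL3 lines were stable, puromycin-selected populations with a GFP-puro vector; the vector behind the shMETTL14 cells is not given in the sources used here. The study asked how loss of METTL3, the methyltransferase that places N6-methyladenosine (m6A) on mRNA, acts on AML cells, and its model runs from METTL3 through PGC-1α to antioxidant genes and MAPK signaling. The libraries hold poly(A) RNA only, so neither m6A nor protein was measured in them.

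PGC-1 coactivators do not bind DNA themselves. They are recruited by transcription factors such as NRF1, GABPA (the DNA-binding subunit of GABP, an ETS factor) and ESRRA (the estrogen-related receptor ERRα), and raise transcription of nuclear genes for the respiratory chain and for the maintenance of mitochondrial DNA (mtDNA). Among the latter, TFAM packages mtDNA and starts its transcription, TFB2M is the transcription factor that melts the mtDNA promoter, TFB1M methylates the mitochondrial ribosomal RNA, and POLG is the catalytic subunit of the mtDNA polymerase. PGC-1α is best known from brown fat, muscle and liver, where cold, exercise and fasting induce it, whereas PRC responds to growth signals.

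PPARGC1A, NRF1 and TFAM are among the genes the study read by quantitative PCR, and the primer pairs are shown because they define which stretch of each transcript that assay read. Matched to GENCODE release 29 transcripts, each pair hit 1 gene and ended in coding sequence. The PPARGC1A amplicon, chr4:23814213-23814377 on the minus strand of GRCh38, is 165 nt long and lies wholly in exon 8 of the 13 exons of ENST00000264867.6. The NRF1 amplicon of 171 nt (chr7:129657469-129671493, plus strand) joins exons 2 and 3, and the TFAM amplicon of 177 nt (chr10:58385635-58388233, plus strand) runs from exon 1 to exon 3.
PPARGC1A forward: aggaaaggaagaccaagcgg
PPARGC1A reverse: aaatctgcccctgccaatca
NRF1 forward: gctgatgaagactcgccttct
NRF1 reverse: tacatgaggccgtttccgttt
TFAM forward: cgctcccccttcagttttgt
TFAM reverse: ccaacgctgggcaattcttc

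Several of these factors are wired to each other at their own promoters, and 4 promoter stretches are shown because they hold letters that NRF1 or ETS factors are known to bind. RefSeq promoter windows (GRCh38.p14, 250 bases before to 50 after the annotated start) were found for 9 of the 10 genes, not for NRF1. Capitals mark every match on either strand: TGCGCATGC (an NRF1 core) and its shorter inner form GCATGCGC, and CCGGAAG (a GABP core) and its inner form CGGAAG. The inner forms were added after the sequences had been seen.
TFB2M, chr1:246566242-246566326, minus strand, -65 to 20 from the start: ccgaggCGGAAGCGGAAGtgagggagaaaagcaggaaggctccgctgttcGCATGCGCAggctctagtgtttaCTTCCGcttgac
ESRRA, chr11:64305464-64305523, plus strand, -60 to -1: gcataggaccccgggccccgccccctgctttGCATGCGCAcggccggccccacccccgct
TFB1M, chr6:155314555-155314624, minus strand, -140 to -71: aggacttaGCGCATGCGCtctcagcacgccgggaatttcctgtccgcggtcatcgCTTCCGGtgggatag
GABPA, chr21:25734882-25734941, plus strand, -90 to -31: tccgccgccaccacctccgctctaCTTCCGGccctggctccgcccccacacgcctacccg

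TGCGCATGC lay in the windows of TFB2M and ESRRA, 2 of the 9 genes, and in 1.55% of 34943 promoter windows. GCATGCGC also occurred in TFB1M, making 3 of 9 genes against 3.02% of all windows. CCGGAAG was found in GABPA and TFB1M, 2 of 9 genes, and in 10.2% of all windows, and CGGAAG additionally in TFB2M, against 19.4% of all windows. The longer GABP element CCGGAAGTG (2.34% of all windows), the ERR element TCAAGGTCA (0.355%) and its core AAGGTCA (3.92%) were in none of the 9. Neither PPARGC1A window (chr4:23881052-23881351 and chr4:24472856-24473155, minus strand) held any of these letters, nor did those of PPARGC1B (chr5:149771690-149771989, plus strand), PPRC1, TFAM and POLG. For PPARGC1A, PPARGC1B, GABPA and TFAM the outermost start in GENCODE release 29 lies outside the RefSeq windows, and the sequence there was not searched. A match describes letters in a window and is not evidence of binding. No mismatch was allowed, so sites that differ from these letters were missed. Lack of a match is thus not evidence that a site is absent.

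**Figure D1:**
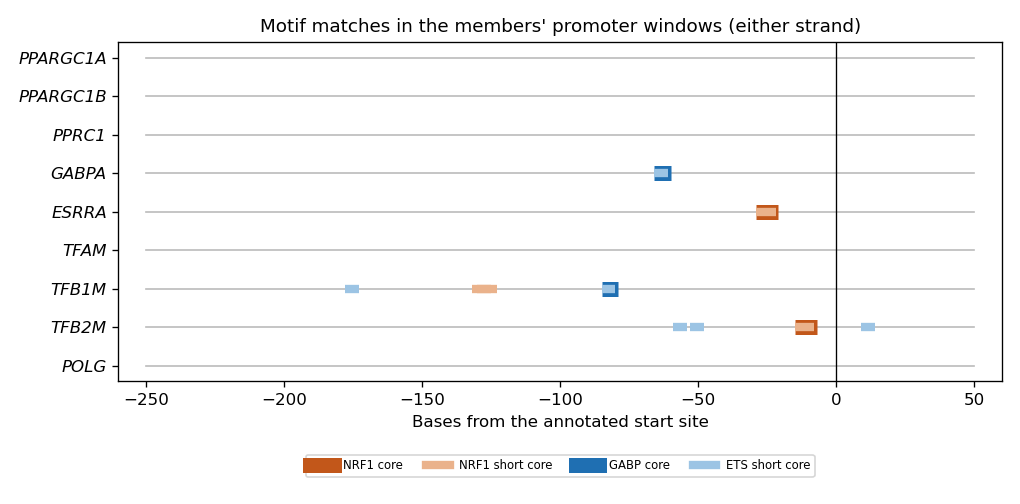
Position of motif matches in the RefSeq promoter windows of 9 genes, in bases from the annotated start site (vertical line); thick bars are the NRF1 and GABP cores and thin bars their inner forms, on either strand. Matches are drawn for TFB2M, TFB1M, ESRRA and GABPA, and none for PPARGC1A (both windows), PPARGC1B, PPRC1, TFAM or POLG.

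Library totals ran from 19292574 to 20115304 counts, and 17686 genes passed the filter on low counts. METTL3 fell in its own knockdown (log2 fold change -0.87, adjusted p = 3.44e-07) and METTL14 in its own (-0.76, adjusted p = 1.41e-05; edgeR quasi-likelihood test, Benjamini-Hochberg adjustment over all tested genes, as throughout). The erythroid genes GATA1, TAL1, KLF1 and TFRC were at 2414 reads or more in every library, and the gamma-globin genes HBG1 and HBG2, near-identical copies that can share reads, at 10 to 138, whereas the T-cell, B-cell and myeloid genes CD3E, MS4A1, CD14, MPO and ELANE had at most 3. The summed reads of 9 markers of other cell types were 1150 to 1210 in shCTR, 932 to 934 in shMETTL3 and 922 to 961 in shMETTL14 libraries, most of them from EPCAM, which fell in both knockdowns (-0.57 and -0.40), and their part in the results was not tested. Nothing says that libraries came from separate cultures, so p-values measure the spread between these libraries, which may be technical. The sources used here give 1 METTL3 stem, so loss of METTL3 and other effects of that shRNA cannot be told apart. The stem matched no transcript of the 10 genes exactly, and the longest runs shared with it were from 6 (TFB1M) to 9 nt (TFB2M). Effects through such partial matches were not tested.

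PPARGC1A (ENSG00000109819, chr4:23755041-23904089, minus strand), the coactivator the model turns on, had hardly any reads in these libraries. The annotation and counting mode behind the counts are not given in the sources used here. Low expression and reads lost in counting therefore cannot be told apart for PPARGC1A. The shCTR pair held 3 and 2 reads, the shMETTL3 pair 3 and 7, and the shMETTL14 pair 2 and 2. In 5 of 6 libraries it was thus at or under 3 reads, taken here as the floor of detection, and 7 of the 19 reads in all came from shMETTL3 replicate 2. The gene did not pass the filter and was not tested. Its summed rate was 0.126 CPM (reads scaled to a total of 1000000, here by the library total) in shCTR cells (exact Poisson 95% interval 0.041 to 0.294), 0.257 in shMETTL3 cells (0.123 to 0.472) and 0.102 in shMETTL14 cells (0.0277 to 0.261), intervals that cover counting error only. The ratio of shMETTL3 to shCTR was 2.04, with an exact 95% interval from 0.634 to 7.59, so neither a rise nor a fall was detectable at this depth. No fold is given for shMETTL14 against shCTR, where every library was at or under the floor. Fitted without the filter, the shMETTL3 change had an adjusted p of 0.748.

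Within the coactivator family, the reads belonged almost wholly to the other two genes. PPARGC1A held 19 of 10358 family reads, or 0.183%. The share was between 0.11% and 0.406% per library, the latter in shMETTL3 replicate 2 with a Wilson 95% interval of 0.197% to 0.835%. Per kilobase of transcript the mean share of PPARGC1A was 0.193%.

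PPARGC1B (ENSG00000155846, chr5:149730298-149855022, plus strand), the closest relative of PPARGC1A, had 617 and 611 reads in shCTR, 691 and 728 in shMETTL3 and 684 and 716 in shMETTL14 libraries. Scaled by TMM, the mean was 31.6 ± 0.49 CPM (SD, n = 2) for shCTR. It was 35.8 ± 0.782 CPM for shMETTL3 and 35.7 ± 1.21 CPM for shMETTL14. All 4 knockdown libraries lay above both shCTR libraries. The log2 fold change was 0.18 (standard error 0.0794, 95% interval 0.01 to 0.34) after METTL3 knockdown and 0.18 (standard error 0.0795) after METTL14 knockdown, each 1.13 times the shCTR level. Neither passed the test over all genes (adjusted p = 0.134 and 0.211, edgeR), and both comparisons share the same shCTR libraries. With library size alone as scaling, the shMETTL3 difference was 0.23 with an adjusted p of 0.0484 (edgeR), and the median of all genes moved by 0.06. Over 14 processing settings this difference ran from 0.07 to 0.23.

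PPRC1 (ENSG00000148840, chr10:102132994-102150331, plus strand) had 1107 and 1032 reads in shCTR, 1046 and 990 in shMETTL3 and 1134 and 983 in shMETTL14 libraries. Both shMETTL3 libraries, at 53.3 and 49.4 CPM, were below the shCTR libraries at 56.1 and 54.0 CPM, while the shMETTL14 libraries at 57.8 and 50.2 CPM spanned both groups. The log2 fold change came to -0.10 (adjusted p = 0.42 in edgeR, standard error 0.078) after METTL3 knockdown and -0.03 after METTL14 knockdown. Corrected for a trend with GC content and length, the shMETTL3 value was -0.21 with an adjusted p of 0.0387 (edgeR). Over 14 processing settings it ran from -0.21 to -0.04.

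The DNA-binding partners came next. NRF1 (ENSG00000106459, chr7:129611714-129757082, plus strand), nuclear respiratory factor 1, had 462 and 395 reads in shCTR, 398 and 386 in shMETTL3 and 416 and 462 in shMETTL14 libraries. In CPM the shMETTL3 libraries, at 20.3 and 19.3, were the lowest of the 6, with the lower shCTR library close above at 20.7. The log2 fold change was -0.16 (standard error 0.102, 95% interval -0.37 to 0.06, adjusted p = 0.318, edgeR) for shMETTL3 against shCTR. It was 0.02 for shMETTL14 against shCTR and -0.18 (adjusted p = 0.291) for shMETTL3 against shMETTL14.

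GABPA (ENSG00000154727, chr21:25734570-25772460, plus strand) had 1079 and 944 reads in shCTR, 1059 and 1029 in shMETTL3 and 1100 and 1096 in shMETTL14 libraries. The 2 shMETTL14 libraries were the highest, at 56.1 and 56.0 CPM, against 54.7 and 49.4 CPM in shCTR. The log2 fold change was 0.02 for METTL3 knockdown and 0.11 (standard error 0.0728, adjusted p = 0.442, edgeR) for METTL14 knockdown. ESRRA (ENSG00000173153, chr11:64305572-64316743, plus strand) had 1719 and 1954 reads in shCTR, 1775 and 2011 in shMETTL3 and 1889 and 1823 in shMETTL14 libraries. Its groups overlapped throughout, with a shCTR mean of 94.7 ± 10.7 CPM (SD, n = 2), and its 3 log2 differences were between 0.00 and 0.01, with 95% intervals from -0.16 to 0.17.

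Of the factors that act inside the mitochondrion, TFAM (ENSG00000108064, chr10:58385022-58399221, plus strand) was the most abundant in reads. It had 2566 and 2226 reads in shCTR, 2328 and 2403 in shMETTL3 and 2352 and 2377 in shMETTL14 libraries. The 4 knockdown libraries lay between 118.7 and 121.4 CPM, inside the range of the shCTR pair (116.4 and 130.0 CPM). On the log2 scale the difference from shCTR was -0.05 (SE 0.0664; adjusted p = 0.683, edgeR) in shMETTL3 and -0.03 (adjusted p = 0.846) in shMETTL14 cells.

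TFB2M (ENSG00000162851, chr1:246540560-246566324, minus strand) was the only one of the 9 tested genes whose knockdown pairs lay wholly on opposite sides of the shCTR pair. It had 1241 and 1175 reads in shCTR, 1333 and 1295 in shMETTL3 and 1154 and 1132 in shMETTL14 libraries. In CPM these were 62.9 and 61.5, 67.95 and 64.6, and 58.8 and 57.8, so that no 2 groups overlapped. The log2 fold change was 0.09 (adjusted p = 0.381) for shMETTL3 and -0.09 (adjusted p = 0.477) for shMETTL14 against shCTR. Between the knockdowns it was 0.18 (standard error 0.0673, 95% interval 0.04 to 0.33, unadjusted p = 0.0127), with an adjusted p of 0.0827 (edgeR). This last difference passed the threshold when shCTR replicate 1 (0.18, adjusted p = 0.0378) or shCTR replicate 2 (0.18, 0.0371) was left out, in a fit of the 2 knockdowns alone (0.19, 0.0297), with library size alone (0.21, 0.0417) and with GC content and length corrected for (0.25, 0.0046). The last of these also called the shMETTL3 difference from shCTR (0.20, adjusted p = 0.0177, edgeR). Over 14 processing settings the difference between the knockdowns ran from 0.15 to 0.25, and that of shMETTL3 from shCTR from 0.06 to 0.20.

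TFB1M (ENSG00000029639, chr6:155257509-155314493, minus strand) had 367 and 363 reads in shCTR, 379 and 400 in shMETTL3 and 388 and 421 in shMETTL14 libraries. All 4 knockdown libraries were above both shCTR libraries, by 0.06 (adjusted p = 0.712) and 0.14 (adjusted p = 0.471, edgeR) on the log2 scale. POLG (ENSG00000140521, chr15:89305198-89334861, minus strand) had 1773 and 1766 reads in shCTR, 1830 and 1636 in shMETTL3 and 1911 and 1734 in shMETTL14 libraries. Its log2 differences from shCTR were -0.06 and 0.03, smaller than the spread within either knockdown group (SD 8.23 and 6.23 CPM around means of 87.5 and 93.0).

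**Figure D2:**
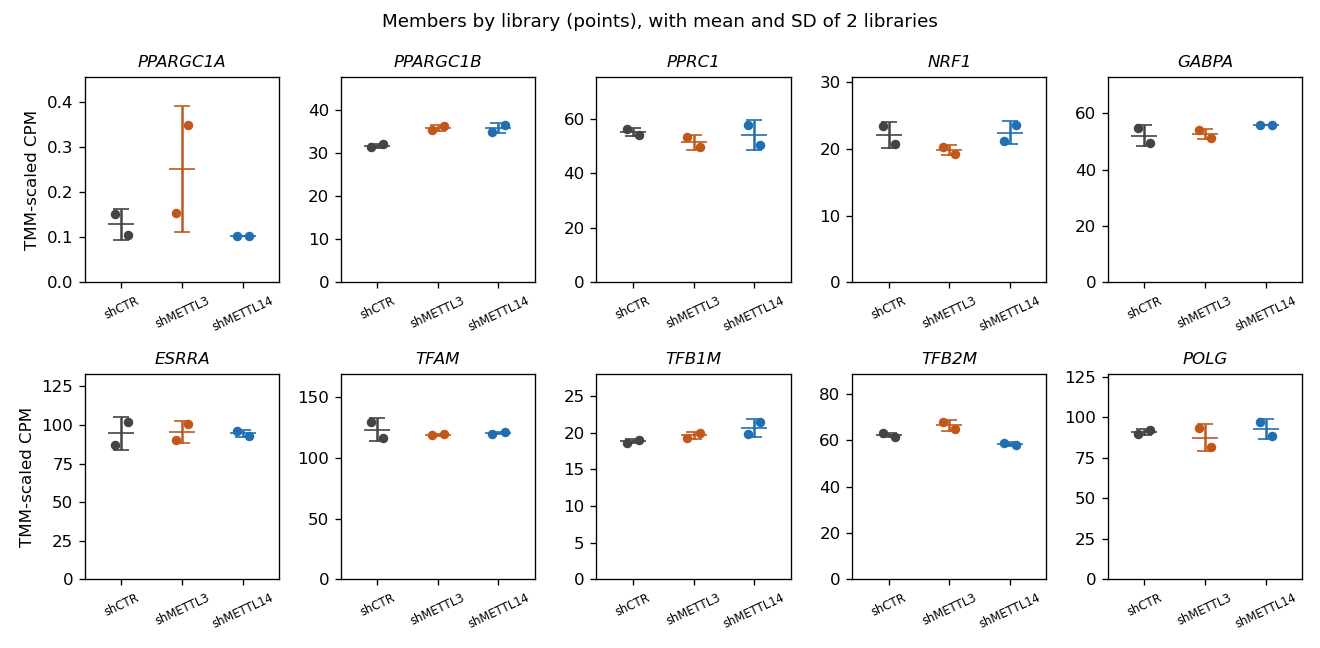
Level of each of the 10 genes in the 6 libraries, in TMM-scaled CPM on axes that start at 0; points are libraries, and the bars give mean and SD of 2 libraries. PPARGC1A stays below 0.35 CPM, TFB2M shows 3 separate pairs, and in PPARGC1B both knockdown pairs sit above 34 CPM with shCTR near 32.

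Across the 9 tested genes, none was called in any of the 3 comparisons. For shMETTL3 against shCTR, 16.5% of the 17686 tested genes were called, 8.73% higher and 7.73% lower. For shMETTL14 against shCTR the background was 6.69% (3.43% higher and 3.26% lower), and for shMETTL3 against shMETTL14 it was 12.1% (6.65% higher and 5.49% lower). Read against these shares, 0 of 9 does not set the genes apart. At an unadjusted p under 0.05 (edgeR) there was 1 gene in each comparison, PPARGC1B in both comparisons with shCTR and TFB2M between the knockdowns. Over all 17686 tested genes, 5291, 3665 and 4417 were under 0.05 in the 3 comparisons, so 1 of 9 does not stand out. DESeq2 also called 0 of the 9 in each. The median log2 fold change of the 9 was 0.01, 0.02 and -0.07, beside medians of 0.00 over all tested genes. No 95% interval of the 9 reached below 0.774 times or above 1.27 times the shCTR level in shMETTL3 cells, or below 0.85 times or above 1.27 times in shMETTL14 cells.

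**Figure D3:**
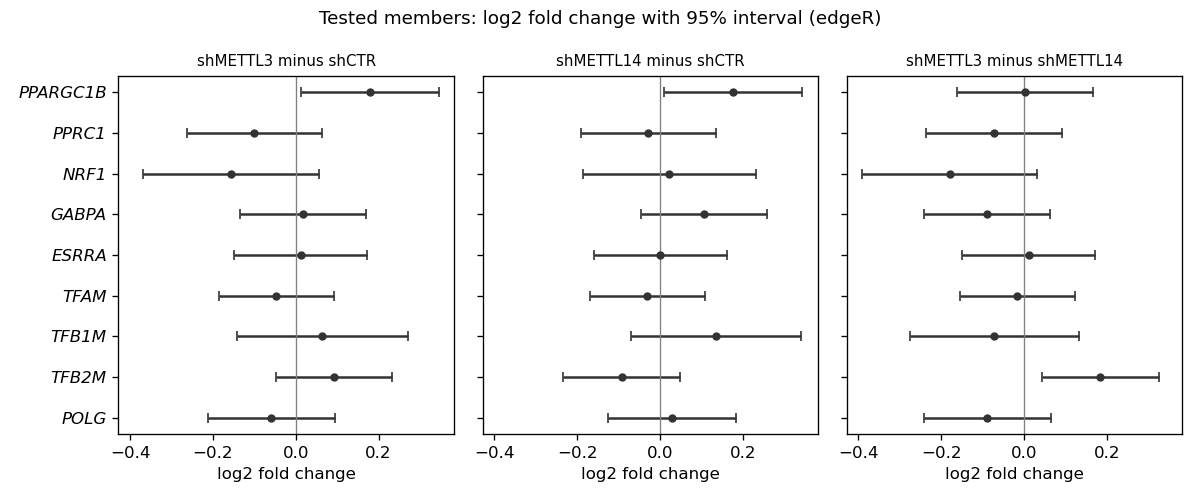
Log2 fold change of the 9 tested genes with its 95% interval from the edgeR fit, in 3 panels for shMETTL3 minus shCTR, shMETTL14 minus shCTR and shMETTL3 minus shMETTL14. Only PPARGC1B (first 2 panels) and TFB2M (right panel) have intervals that leave out 0, before adjustment over all genes.

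Per kilobase of each gene's longest transcript, the levels of the 9 genes that passed the filter ran from 3.25 to 41.6 CPM per kb. ESRRA was highest at 41.6 ± 2.54 CPM per kb (SD over 6 libraries), followed by TFB2M at 33.7 ± 2.03, TFAM at 22.4 ± 0.868, POLG at 19.4 ± 1.14 and TFB1M at 13.8 ± 0.716. GABPA at 10.5 ± 0.524 and PPRC1 at 10.0 ± 0.611 were the only neighbours in this order whose ranges over the 6 libraries overlapped. NRF1 followed at 6.0 ± 0.49 and PPARGC1B at 3.25 ± 0.212. PPARGC1A was last at 0.0254 ± 0.0151 CPM per kb, a level that rests on its 19 reads, so no fold over it is given. Among 19664 protein-coding genes, ESRRA stood above 92.2%, PPRC1 above 71.1% and PPARGC1B above 55.0%. These levels depend on the transcript length chosen, which for PPARGC1B was 10568 nt. Shares of exonic bases that overlap another gene were 9.37% for ESRRA (TRMT112), 7.86% for TFB1M (TIAM2), 7.66% for POLG (FANCI), 7.61% for GABPA (ATP5PF) and 2.71% for NRF1 (RNA5SP244). Whether the counting used strand is not given in the sources used here. The pseudogene copy GABPAP had 28 to 47 reads, and the copies of ESRRA and TFAM at most 3.

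**Figure D4:**
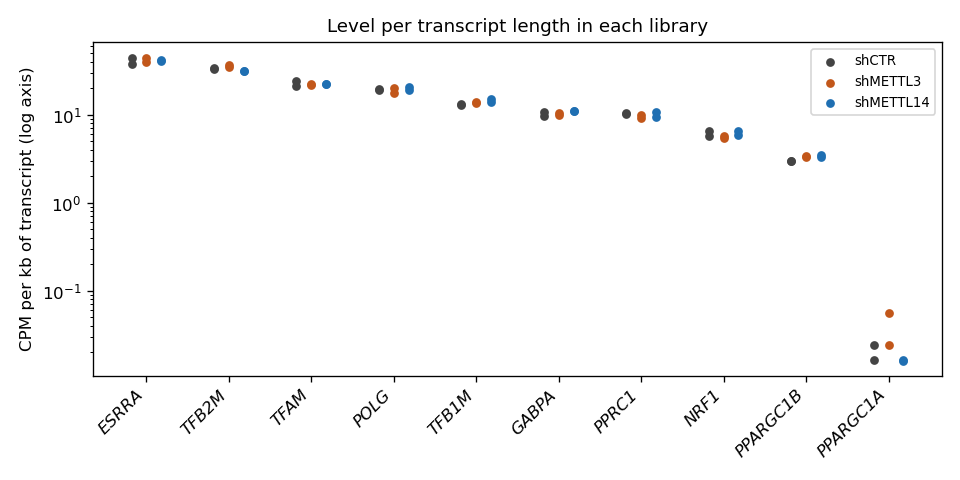
Level per transcript length of the 10 genes in each library, as CPM per kb on a log axis, coloured by group. ESRRA to PPARGC1B lie between 44.8 and 2.96 CPM per kb, and PPARGC1A lies under 0.06.

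The genes whose pattern over the 6 libraries was most like that of PPARGC1B, among 12302 others with a mean of at least 50 reads, were RMI2, SNAPIN and TMEM106C. Their root mean square differences in centred log2 CPM were 0.0146, 0.0218 and 0.0227, beside a median of 0.142 over all compared genes. For PPRC1 they were NOL11, LMNA and TRAFD1, at 0.00957, 0.0178 and 0.0183, beside a median of 0.131. In each case the 3 were picked as the smallest differences, so lying below the median follows from the choice. Shared regulation was not tested. PPARGC1A was not compared in this way because it failed the filter.

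Among 32 partners and regulators of the PGC-1 family, such as GABPB1, HCFC1, PPARA, SIRT1 and the AMPK subunit genes PRKAA1 and PRKAA2, 29 were tested. After METTL3 knockdown 1 rose and 2 fell, and after METTL14 knockdown 1 rose and 1 fell, with medians of 0.03 in both, beside backgrounds of 8.73% higher and 7.73% lower for shMETTL3 and 3.43% and 3.26% for shMETTL14. With GC content and length corrected for, 2 rose and 5 fell in shMETTL3 (median -0.03) and 2 rose and 2 fell in shMETTL14 cells. Under that correction 1634 of all 17686 tested genes rose and 1895 fell in shMETTL3, and 822 and 848 in shMETTL14 cells. Without that correction, the rise was that of ESRRB, a paralog of ESRRA that encodes ERRβ. It went from 9.58 and 10.6 CPM in shCTR to 19.1 and 18.5 CPM in shMETTL3 and 14.4 and 14.2 CPM in shMETTL14 libraries. Its log2 fold change was 0.90 (adjusted p = 1.68e-05) and 0.51 (adjusted p = 0.00988, edgeR). ESRRB was at 14.4 CPM or less outside shMETTL3, whereas ESRRA was at 87.1 CPM or more in every library. MEF2C, a transcription factor that PGC-1α coactivates, fell by 0.31 and by 0.35 (adjusted p = 0.00539 and 0.00475, edgeR). GABPB1, which encodes the partner subunit of GABPA, fell by 0.25 in shMETTL3 cells (adjusted p = 0.0304, edgeR). Leaving out any library other than shCTR replicate 1 ended the GABPB1 call (-0.16 without shCTR replicate 2), as did DESeq2, library size alone, no filter, the compared groups alone and the GC and length correction. Leaving out shMETTL3 replicate 2 ended that of MEF2C in shMETTL3 (-0.22), and leaving out either shMETTL14 library that in shMETTL14 (-0.35 and -0.34). For ESRRB the shMETTL14 call ended without shCTR replicate 1 (0.43) or either shMETTL14 library (0.50 and 0.51).

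Of 34 genes for mtDNA replication, transcription and RNA processing, all 34 were tested. In shMETTL3 cells 0 rose and 7 fell, beside the background of 7.73% lower. In shMETTL14 cells 0 rose and 3 fell, beside 3.26% lower, with a median of -0.09 in both. The shMETTL14 falls numbered 1 with DESeq2 or library size alone and 5, with 1 rise, under the GC and length correction. Over all 17686 genes, the shMETTL14 falls were 404 with DESeq2, 443 with library size alone and 848 with the correction, which gave 822 rises. In shMETTL3 cells MTERF2, which belongs to the mitochondrial termination factor family, fell by 0.47 (adjusted p = 0.000861, edgeR). There SSBP1, the mtDNA single-strand binding protein, fell by 0.28 (adjusted p = 0.00316) and PNPT1, a mitochondrial RNA-degrading enzyme, by 0.27 (adjusted p = 0.00537, edgeR). The others were SLIRP, LRPPRC, MTPAP and POLG2. POLG2, the accessory subunit of the polymerase whose catalytic subunit is POLG, fell by 0.28 in shMETTL3 (adjusted p = 0.0106) and by 0.24 in shMETTL14 cells (adjusted p = 0.04996, edgeR), where PNPT1 and the nuclease DNA2 also fell by 0.24 (adjusted p = 0.0248 and 0.0488). POLRMT, the RNA polymerase that works with TFAM and TFB2M, was at 0.06 and 0.03, and the helicase gene TWNK at 0.01 and 0.00. The SSBP1 and POLG2 calls in shMETTL3 ended without shMETTL3 replicate 2 (-0.27 and -0.23), and that of PNPT1 without either shMETTL3 library (-0.25 and -0.29). The 3 calls in shMETTL14 ended when any library but shCTR replicate 2 was left out, with values of -0.16 to -0.32.

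Of 32 nuclear genes named as targets of PGC-1 signaling, 31 were tested. In shMETTL3 cells 2 rose and 6 fell (median -0.08), or 2 and 1 with library size alone, and in shMETTL14 cells 0 rose and 4 fell (median -0.06). Over all 17686 genes, 2161 rose and 855 fell in shMETTL3 cells with library size alone. With TMM the backgrounds were 8.73% higher and 7.73% lower for shMETTL3 and 3.43% and 3.26% for shMETTL14. The rises in shMETTL3 were those of VEGFA (0.28, adjusted p = 0.00239), an angiogenic factor, and ANGPTL4 (1.20, adjusted p = 0.029, edgeR), at 12 to 49 reads. The falls with the smallest adjusted p were ATP5F1A (-0.21, adjusted p = 0.0115), the ATP synthase alpha subunit, COX6C (-0.26, 0.0126), a cytochrome c oxidase subunit, and UQCRC2 (-0.20, 0.0255, edgeR), a complex III core protein. In shMETTL14 cells CS, citrate synthase, fell by 0.39 (adjusted p = 0.000217), VEGFA by 0.31 (0.00216) and UQCRC2 by 0.24 (0.0193, edgeR). The calls of ATP5F1A (-0.21), COX6C (-0.26) and UQCRC2 (-0.23 and -0.17) in shMETTL3 ended without either shMETTL3 library, and those of COX6C and UQCRC2 also without shCTR replicate 1 (-0.19 and -0.15). That of VEGFA in shMETTL3 ended with the GC and length correction (0.13). That of ANGPTL4 ended when any shCTR or shMETTL3 library was left out (1.02 to 1.35). In shMETTL14, UQCRC2 lost its call without shCTR replicate 1 (-0.19) or either shMETTL14 library (-0.25 and -0.23), and VEGFA without shMETTL14 replicate 1 (-0.31).

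The 13 mRNAs of mtDNA, the end product of the TFAM and TFB2M machinery, took 3.35% and 3.34% of reads in shCTR, 3.5% and 3.57% in shMETTL3 and 3.68% and 3.76% in shMETTL14 libraries. In shMETTL3 cells 2 rose, MT-CYB (0.50, adjusted p = 0.000391) and MT-ND6 (0.34, 0.0151), and 1 fell, MT-ND1 (-0.19, 0.0321, edgeR), around a median of 0.08, beside backgrounds of 8.73% higher and 7.73% lower. With library size alone 4 rose and 0 fell in shMETTL3 cells, and with the GC and length correction 7 rose and 0 fell. Over all 17686 genes, 2161 rose and 855 fell with library size alone, and 1634 and 1895 with the correction. In shMETTL14 cells MT-CYB (0.40, adjusted p = 0.00651) and MT-CO1 (0.27, 0.001, edgeR) rose, around a median of 0.09 and beside 3.43% higher over all genes. With the GC and length correction 4 rose in shMETTL14 cells, beside 822 of all 17686 tested genes. The MT-ND6 call ended without shCTR replicate 2 (0.22) or shMETTL3 replicate 1 (0.28), that of MT-ND1 without shCTR replicate 2 (-0.13), shMETTL3 replicate 1 (-0.12) or shMETTL3 replicate 2 (-0.26), and that of MT-CYB in shMETTL14 without shCTR replicate 1 (0.25) or shMETTL14 replicate 1 (0.36). MT-ND6 lies on the other strand from most mtDNA genes, so without strand its reads cannot be told apart from those of the opposite transcript.

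A further list of 9 genes joins the antioxidant genes SOD1, SOD2, GPX1, CAT and UCP2, which the study placed downstream of PGC-1α, and the respiratory genes COX5A, CYCS, ATP5F1A and ATP5MC1, which it read by PCR. In shMETTL3 cells 1 of the 8 tested rose and 3 fell, beside backgrounds of 8.73% and 7.73%, and in shMETTL14 cells 0 rose and 1 fell, beside 3.43% and 3.26%. UCP2, a mitochondrial uncoupling protein gene, rose by 0.41 in shMETTL3 (adjusted p = 0.000666, edgeR), from 63.6 and 71.5 CPM to 89.3 and 89.8 CPM. SOD1, the cytosolic superoxide dismutase, fell by 0.28 (adjusted p = 0.00226), CAT, catalase, by 0.25 (0.0116) and ATP5F1A as given above, and in shMETTL14 cells CAT fell by 0.28 (0.0113, edgeR). The mitochondrial superoxide dismutase SOD2 was at -0.16 (adjusted p = 0.0853) and -0.18 (0.101), COX5A at -0.19 (0.0649) and -0.15 (0.243), CYCS at -0.04 and -0.06 and ATP5MC1 at 0.04 and 0.03. SOD2 passed the threshold in both knockdowns under the GC and length correction (-0.17, adjusted p = 0.0423, and -0.20, 0.0303). COX5A passed it in shMETTL3 with the replicate block (-0.19, adjusted p = 0.0435) and without shCTR replicate 1 (-0.27, 0.0179). GPX1, glutathione peroxidase, had 1 to 5 reads per library and was not tested. The annotation and counting mode behind the table are not given in the sources used here, so low expression and reads lost in counting cannot be told apart for GPX1. The CAT call in shMETTL3 ended without shCTR replicate 1 (-0.19) or shMETTL3 replicate 2 (-0.20), and in shMETTL14 without shCTR replicate 1 (-0.21) or either shMETTL14 library (-0.26 and -0.30). In the same libraries PPARGC1A itself was at 2 to 7 reads, and a link between it and these genes was not tested. The study reported less PGC-1α mRNA and protein, and less NRF1 mRNA, in K562 cells after METTL3 knockdown. It read the antioxidant genes after knockdown of PGC-1α, not of METTL3, and reported lower mRNA of SOD1, GPX1, catalase and UCP2 there. The study's discussion, unlike its results, also counts SOD2 among the genes that decreased.

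**Figure D5:**
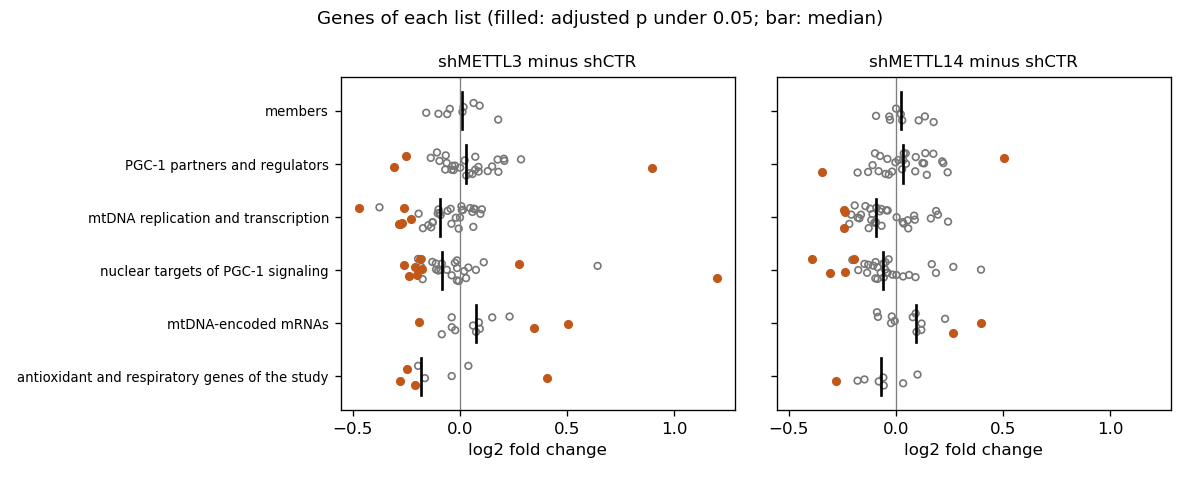
Log2 fold change of every tested gene of 6 lists, for shMETTL3 minus shCTR (left) and shMETTL14 minus shCTR (right); filled points have an adjusted p under 0.05, open points do not, and vertical bars are list medians. The 9 tested coactivators and biogenesis factors are all open, and of the 34 mtDNA genes 7 (left) and 3 (right) are filled, all below 0.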

How the data were processed

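Poly(A) RNA-seq of K562 cells was analysed in 6 libraries, 2 each of shCTR, shMETTL3 and shMETTL14, grouped by the submitters' titles. The file the authors deposited holds raw counts (whole reads for each gene) of 61661 identifiers, 60675 of them Ensembl genes and 986 unnamed genes outside the annotation (0.635% to 0.703% of reads, kept in the totals). The submitters' processing notes name hg38 and HTSeq 0.6.1; the aligner is not given in the sources used here. Symbols, lengths and coordinates came from a gene name table and GENCODE release 29 (GRCh38), and promoter sequences from RefSeq. Primers and motifs were matched with no mismatch allowed.

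edgeR 4.0.16 (R 4.3.3) was applied to these counts. Genes under a minimum count of 10 were dropped by filterByExpr, which left 17686, TMM scaling was used, and quasi-likelihood tests for 3 comparisons came from one fit over all 6 libraries, with 3 residual degrees of freedom (median prior 16.4), Benjamini-Hochberg adjustment and a threshold of 0.05. The alternatives were DESeq2 1.42.0, its size factors in edgeR, library size alone, no filter, a fit limited to the 2 groups compared, the replicate number as block, a smooth GC and length trend subtracted per library (mgcv 1.9.3; values for 94.2% of tested genes), a threshold of 0.01, and each library left out in turn. On data simulated for shMETTL3 against shCTR (on average 17321 genes tested, 200 changed 2-fold), 74.9% of changed genes were called, 100% where the mean was 300 counts or more, and 7.44% of calls were unchanged genes. Smaller changes, such as those of the 9 tested genes, were not simulated, so these shares do not apply to them.

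The genes described, the lists and the motifs were chosen with earlier results of these data known. Named genes were all 10, METTL3, METTL14, 5 antioxidant and 4 respiratory genes that the study read, up to 3 called genes per list and direction with the smallest adjusted p in each comparison with shCTR, and the 3 nearest patterns of each coactivator that passed the filter. EPCAM, POLRMT, TWNK, SLIRP, LRPPRC and MTPAP, and POLG2 in the shMETTL3 comparison, were named after their values were seen. Intervals on reads cover counting error only.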

Additional observations from a re-analysis of the deposited data

Results flagged for a closer look

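Between the 2 knockdowns, tested directly in the edgeR fit, none of the 10 genes differed at an adjusted p under 0.05. Of the other genes named, METTL3 (log2 difference shMETTL3 minus shMETTL14 of -0.73) and METTL14 (0.89) differed, each being lower in its own knockdown. ESRRB, the paralog of ESRRA, was higher in shMETTL3 than in shMETTL14 cells by 0.39, UCP2 by 0.31, CS by 0.28 and VEGFA by 0.59. SOD1 (-0.20) and MT-CO1 (-0.19) were lower in shMETTL3 than in shMETTL14 cells. Leaving out any library of either knockdown ended the calls of SOD1 (-0.17 to -0.23) and ESRRB (0.37 to 0.41). The call of UCP2 ended without shMETTL3 replicate 1 (0.31), shMETTL3 replicate 2 (0.31) or shMETTL14 replicate 1 (0.24), and that of MT-CO1 without shMETTL3 replicate 1 (-0.22) or shMETTL3 replicate 2 (-0.16). VEGFA was above shCTR in both shMETTL3 libraries and below it in both shMETTL14 libraries.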

How the results depend on the processing

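Over 13 alternatives and 3 comparisons, 343 of 351 values of the 9 tested genes stayed on the same side of the threshold, and 8 passed it, in 5 settings. In shMETTL3 against shCTR 1 of the 9 was called with library size alone (PPARGC1B) and 2 under the GC and length correction (TFB2M and PPRC1). Those settings called 3016 and 3529 of all 17686 tested genes. In shMETTL3 against shMETTL14 the count was 1, TFB2M each time, with library size alone, the compared groups only and the GC and length correction, and 0 to 1 with a library left out. It was 0 throughout for shMETTL14 against shCTR. Why the count among the 9 changed was not tested. Between the knockdowns, library size alone, the compared groups only and the GC and length correction called 2154, 2905 and 3086 genes in all. Over the whole table, leaving out a library gave 1102 to 3569 called genes for shMETTL3 against shCTR (2912 in all 6), 341 to 1913 for shMETTL14 against shCTR (1184) and 942 to 2953 between the knockdowns (2148); the remaining lone library is then assumed to vary like the others. DESeq2 called 1881, 763 and 1327, a threshold of 0.01 left 1439, 514 and 1180, and without a filter 766 were called for shMETTL14 against shCTR. With library size alone, 71.7% of the shMETTL3 calls were higher, beside 53.0% with TMM, 62.8% beside 51.3% for shMETTL14 and 65.0% beside 54.8% between the knockdowns, the median of all genes moving by 0.06, 0.03 and 0.03. The replicate numbers did not pair the samples: the correlation of replicate differences between groups was 0.0614, 0.00511 and -0.02. A fit with the replicate block called 3264, 1459 and 2478 genes and 0 of the 9. Of the 39 called values of other named genes, 13 kept their call in every setting, and none reversed; besides the libraries left out, VEGFA, COX6C, MT-ND1 and GABPB1 in shMETTL3 lost theirs with the GC and length correction, ATP5F1A, UQCRC2, MT-ND1 and GABPB1 with library size alone, UQCRC2 and GABPB1 with the compared groups only, and ANGPTL4 and GABPB1 with DESeq2 and without a filter. DNA2 and POLG2 in shMETTL14 lost theirs with DESeq2, library size alone, no filter and the compared groups only, and DNA2 also with the GC and length correction. Between the knockdowns ESRRB lost its call with DESeq2 (adjusted p = 0.103) and SOD1 with library size alone (0.0611). In 29 cases another named gene passed the threshold only under an alternative: SOD2, COX5A and MT-CO1 for shMETTL3, SOD2, MTERF2 and MT-ND6 for shMETTL14, and ATP5F1A, GABPB1, MTERF2, DNA2, ANGPTL4 and COX6C between the knockdowns. The low count limits PPARGC1A, at 2 to 7 reads.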
